A study of Homo sapiens with 2 samples.

Results

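AKAP12 and 9 further genes of the protein kinase A (PKA) machinery were followed on 2 arrays of RKO, an established cell line from a human colon carcinoma. The members are 5 A-kinase anchoring proteins (AKAP12, AKAP1, AKAP8, AKAP11 and AKAP13) and 5 PKA subunits (PRKACA, PRKACB, PRKAR1A, PRKAR2A and PRKAR2B). They were taken by symbol, as every probe set that the array annotation assigns to 1 of these symbols alone, which gave 39 of 54675 probe sets and 10 of 19775 genes. The set was chosen by a readout of these arrays, the sh-BCLAF1-L minus sh-Luci difference of AKAP12, so that difference is a description and carries no test. The sh-BCLAF1-L array held RNA from cells that carried a retroviral hairpin against the L form of BCLAF1, a nuclear protein of splicing and transcription. The sh-Luci array held RNA from cells that carried a hairpin against luciferase. Both cultures had their medium changed 24 h after infection and were then kept in 2 ug/ml puromycin for 72 to 96 h, and the cells are described as stable lines. There was 1 array per group, so no value has a replicate and no p-value is given. One hairpin was measured, and lower BCLAF1, other effects of that hairpin and differences between the cultures or arrays cannot be told apart.

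PKA is a tetramer of catalytic and regulatory subunits that is held inactive until cyclic AMP binds the regulatory pair and frees the catalytic subunits. A-kinase anchoring proteins hold the regulatory subunits at particular places in the cell through a short amphipathic helix, so that the kinase acts near chosen substrates. AKAP12, also called gravin or SSeCKS, is a scaffold at the plasma membrane and cytoskeleton that also binds protein kinase C, calmodulin and beta-adrenergic receptors. It is known as a gene whose promoter is often methylated in colorectal and other tumours.

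AKAP12 is transcribed from alternative starts, and the RefSeq promoter table (GRCh38.p14) lists 3 of them on the plus strand of chromosome 6. The second lies 85564 bases and the third 101739 bases after the first. The 250 bases before each start are printed 5′ to 3′ because AKAP12 is the gene the results turn on, with capitals marking the E-box CACGTG, a palindrome that basic helix-loop-helix factors such as MYC and USF1 bind. The windows are chr6:151239717-151239966, chr6:151325281-151325530 and chr6:151341456-151341705.
AKAP12 start 1: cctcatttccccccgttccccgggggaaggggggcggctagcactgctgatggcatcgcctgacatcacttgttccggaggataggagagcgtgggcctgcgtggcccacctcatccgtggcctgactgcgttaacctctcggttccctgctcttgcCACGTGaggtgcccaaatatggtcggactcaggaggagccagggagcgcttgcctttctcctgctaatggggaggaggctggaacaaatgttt
AKAP12 start 2: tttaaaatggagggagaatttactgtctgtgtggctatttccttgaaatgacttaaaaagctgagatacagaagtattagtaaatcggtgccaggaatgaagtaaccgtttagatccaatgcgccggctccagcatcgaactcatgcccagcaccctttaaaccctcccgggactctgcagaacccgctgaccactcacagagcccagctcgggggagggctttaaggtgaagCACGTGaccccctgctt
AKAP12 start 3: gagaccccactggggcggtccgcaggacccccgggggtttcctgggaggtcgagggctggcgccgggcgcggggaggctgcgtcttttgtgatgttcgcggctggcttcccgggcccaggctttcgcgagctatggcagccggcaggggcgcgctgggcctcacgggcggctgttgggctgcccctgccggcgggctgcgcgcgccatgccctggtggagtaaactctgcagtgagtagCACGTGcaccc
All 3 AKAP12 windows held the E-box, with its first base 93, 17 and 11 bases before the start. Among 35116 such windows of all genes, 6.34% held it, and among the 21 windows of the other member genes 2 did, 1 each of PRKAR1A and PRKAR2B. The E-box was picked after these windows had been read. The cAMP response element TGACGTCA, the site of CREB-type factors that PKA phosphorylates, was searched on both strands and was in no AKAP12 window. It was in 1 of the 24 member windows, of PRKAR1A, and in 1.65% of all windows. The AP-1 element TGANTCA, also searched on both strands, was likewise in no AKAP12 window, in 1 PRKAR1A window and in 6.57% of all windows. The AKAP12 windows held 13, 9 and 25 CpG dinucleotides, against a median of 11 (quartiles 3 and 23) over all windows. A match is only a match of letters, and the probe sets do not tell which start the transcripts came from.

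AKAP12 had 5 probe sets, and 4 of them were higher in sh-BCLAF1-L cells by 1.80-fold to 2.41-fold. Values are deposited intensities, and a log2 difference is log2(intensity + 1) in sh-BCLAF1-L minus that in sh-Luci. Probe set 210517_s_at, the brightest, read 2264 in sh-BCLAF1-L and 1078 in sh-Luci, a log2 difference of 1.07 or 2.10-fold. Probe set 227530_at read 361 in sh-BCLAF1-L and 199.9 in sh-Luci, 1.80-fold. Both were higher in sh-BCLAF1-L. In RNA from a whole culture, more AKAP12 RNA per cell and more cells that express it cannot be told apart. Probe set 227529_s_at read 139.7 in sh-BCLAF1-L and 68.0 in sh-Luci, 2.04-fold. The array annotation names the same source sequence for it and 227530_at, so this pair cannot be taken as independent in sequence.

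The remaining AKAP12 probe sets lay below detection, defined as a mean over both arrays at or above the 40th percentile of all probe sets, an intensity of 63.7. This cut ranks brightness only, and passing it does not separate expression from background. Probe set 231067_s_at lay just short of it with a mean of 63.2, at 98.6 in sh-BCLAF1-L and 40.4 in sh-Luci, the widest difference of the 39 member probe sets at 1.27 on the log2 scale. Probe set 1555395_at read 27.0 in sh-BCLAF1-L and 26.7 in sh-Luci, a difference of 0.01. The annotation does not say which AKAP12 transcripts a given probe set covers. Over the 3 detected probe sets the differences had a median of 1.03 and an SD of 0.12, and the pooled SD among probe sets of the same gene was 0.16 over 6752 genes. That SD covers probe sets only and not the spread between cultures or arrays.

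**Figure D1:**
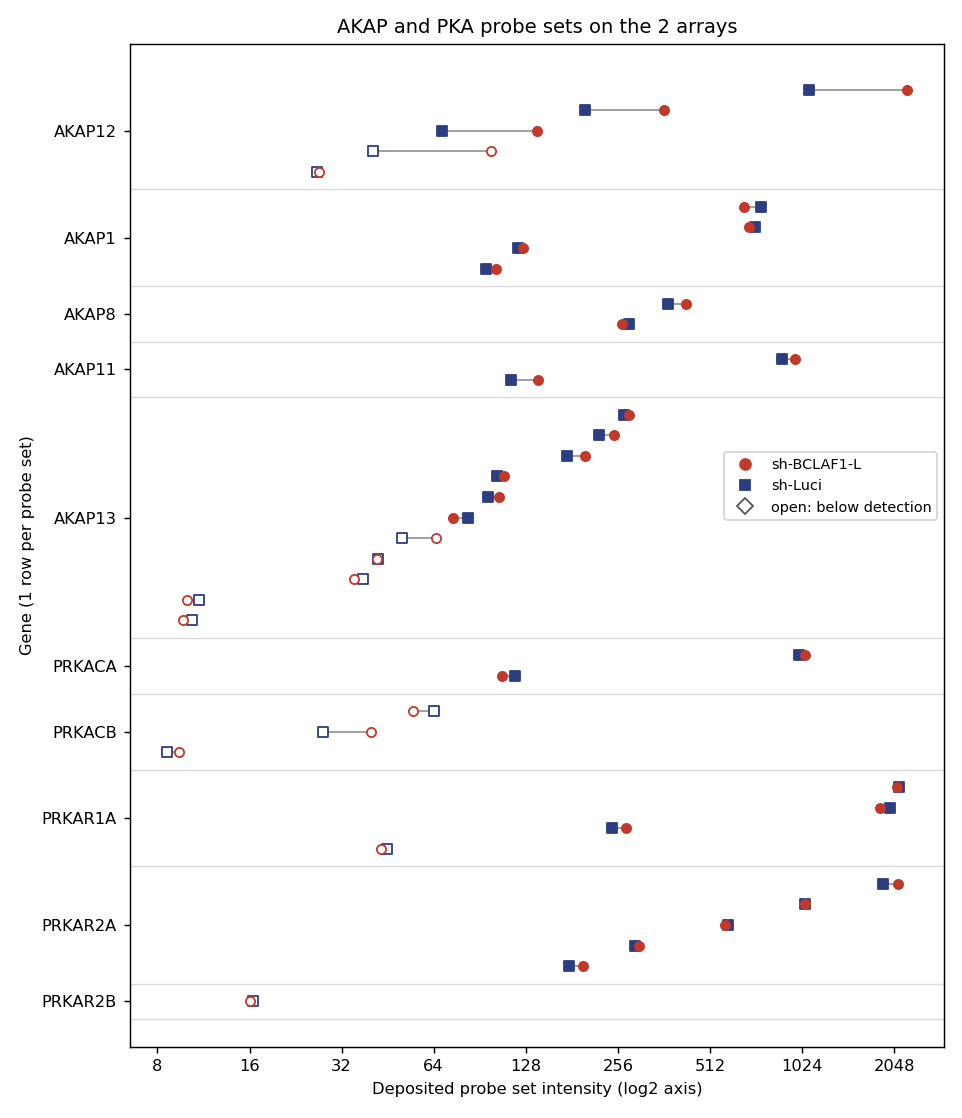
Deposited intensity (x, log2 axis) of the 39 probe sets of the 10 genes (rows), with sh-BCLAF1-L as circles and sh-Luci as squares, filled for detected probe sets. The upper AKAP12 rows have a wide gap with sh-BCLAF1-L on the right, while AKAP12's dimmest probe set and the rows of the other genes have smaller gaps.

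On its brightest probe set AKAP12 ranked 8 of 14507 detected genes by log2 difference, and its rank describes how it was chosen. At least 2-fold higher were 10 detected genes, or 0.0689%, and at least 1.5-fold higher 63, or 0.434%. Of the 8 detected member genes 1, AKAP12, was past each of these thresholds, and none was 1.5-fold lower, against 0.2% of all detected genes. Because AKAP12 was chosen for this contrast, nothing is read from that count. At the probe set level, the 3 detected AKAP12 probe sets were the ones past 1.5-fold among 27 detected member probe sets, where 0.465% of 26452 detected probe sets were higher by that much.

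The spread of differences depends on brightness, so each AKAP12 probe set was set beside probe sets of like mean intensity. Between 1024 and 2048 the central 95% of 1766 probe sets ran from -0.29 to 0.32, and 210517_s_at lay above it. Between 256 and 512 it ran from -0.32 to 0.34, and 227530_at lay above it. From 32 to 64, where 231067_s_at lies, the range widened to -0.41 to 0.48 and 0.0714% of 8405 probe sets were at least 2-fold higher. Between 64 and 128 it ran from -0.36 to 0.43, and 227529_s_at lay above it. Between 16 and 32 it ran from -0.53 to 0.62, and 1555395_at lay inside it. AKAP12 was chosen for its difference, so the place of its probe sets against these ranges describes that choice and is no test. Of the 34 member probe sets outside AKAP12, the PRKACB probe set 235780_at, at 0.51, was the 1 outside the central 95% of its own brightness range.

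**Figure D2:**
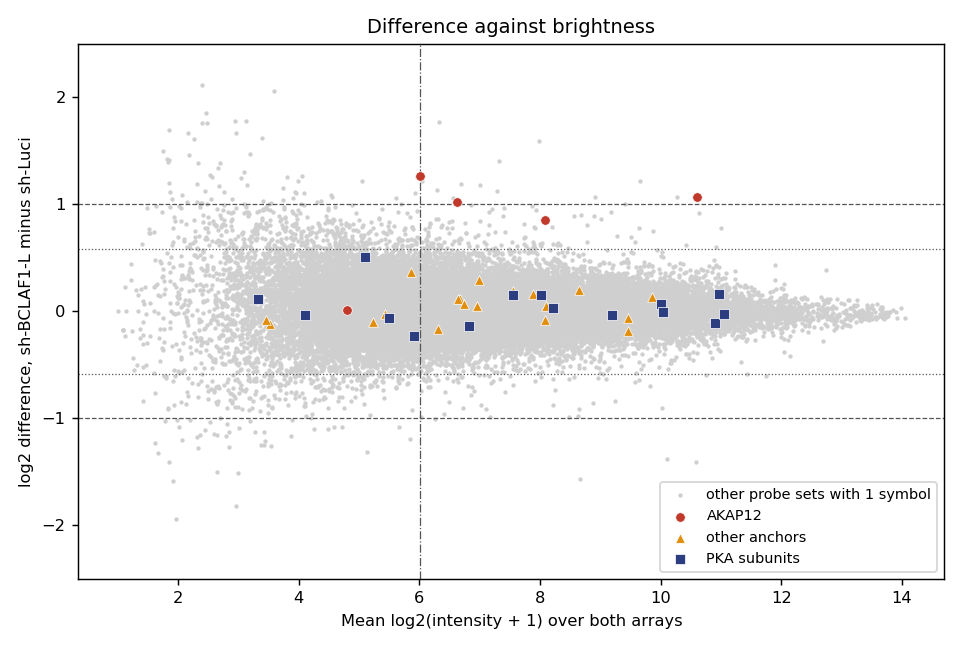
Log2 difference (sh-BCLAF1-L minus sh-Luci, y) against mean log2(intensity + 1) over both arrays (x) for 41097 probe sets with 1 symbol; dotted and dashed lines mark 1.5-fold and 2-fold, and the vertical line marks detection. AKAP12 circles other than the dimmest lie above the 1.5-fold line at mean intensities from about the detection line to far above it, and the other anchors and PKA subunits lie within the grey cloud.

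The other anchoring proteins differed less than AKAP12 did on its brightest probe set, and AKAP12 was chosen for its difference. Over the 19 probe sets of AKAP1, AKAP8, AKAP11 and AKAP13 the log2 differences ran from -0.18 to 0.37 with a median of 0.05, and none reached 1.5-fold. None of the 34 member probe sets outside AKAP12 did so in either direction, against 2.27% of all 41097 probe sets with 1 symbol. At that share few or none of 34 would do so, so nothing is read from that count. The median of those 41097 was 0.02. AKAP11, which binds glycogen synthase kinase and protein phosphatase on vesicles, had 2 detected probe sets, both higher in sh-BCLAF1-L, whereas AKAP1, AKAP8 and AKAP13 each had detected probe sets on either side of 0. Its probe set 203156_at read 970 in sh-BCLAF1-L and 882 in sh-Luci, and 215336_at read 140.3 in sh-BCLAF1-L and 114.5 in sh-Luci, log2 differences of 0.14 and 0.29. These lay inside the central 95% of all detected probe sets, -0.33 to 0.38.

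AKAP1, which tethers PKA to the outer mitochondrial membrane, was split over its 4 detected probe sets. Probe set 201675_at read 660 in sh-BCLAF1-L and 750 in sh-Luci, a difference of -0.18, and 201674_s_at read 687 in sh-BCLAF1-L and 719 in sh-Luci. The other pair, designed from 1 shared sequence, was slightly higher in sh-BCLAF1-L, at 0.05 and 0.11. AKAP8, the nuclear matrix anchor, was also split, with 203847_s_at at 429 in sh-BCLAF1-L and 373 in sh-Luci and 203848_at at 263 in sh-BCLAF1-L and 278 in sh-Luci. No direction can be given for AKAP1 or AKAP8.

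AKAP13, an anchor that is also an exchange factor for the small GTPase RhoA, had 11 probe sets, of which 6 were detected. Of the detected ones 5 were higher in sh-BCLAF1-L and 1 lower, from -0.17 to 0.19 with a median of 0.09. The brightest, 227039_at, read 278 in sh-BCLAF1-L and 269 in sh-Luci. Of the 5 undetected ones, 222023_at read 65.1 in sh-BCLAF1-L and 50.3 in sh-Luci, the highest AKAP13 difference at 0.37. A probe set designed from the same sequence, 222024_s_at, was detected and differed by 0.07.

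The subunits of PKA itself differed little. Over their 15 probe sets the log2 differences ran from -0.23 to 0.51 with a median of -0.0015, and over the 10 detected ones from -0.14 to 0.16. None of these 10 was past 1.5-fold. Of all 26452 detected probe sets with 1 symbol only 184 were, in either direction, so nothing is read from that count. PRKACA, the main catalytic subunit, read 1048 in sh-BCLAF1-L and 1002 in sh-Luci on 202801_at, while 216234_s_at read 107.4 in sh-BCLAF1-L and 118.4 in sh-Luci. PRKACB, a second catalytic subunit, had no detected probe set. Its probe sets read 54.7, 39.9 and 9.41 in sh-BCLAF1-L against 64.1, 27.8 and 8.58 in sh-Luci, so they disagreed in direction.

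Among the regulatory subunits, PRKAR1A, the type I subunit whose loss causes Carney complex, read 2088 in sh-BCLAF1-L and 2130 in sh-Luci on its brightest probe set, a difference of -0.03. On its other detected probe sets the differences were -0.11 and 0.15. The pseudogene PRKAR1AP1 has a probe set of its own, which read 42.9 in sh-BCLAF1-L and 44.8 in sh-Luci. PRKAR2A, the widely expressed type II subunit that most anchors bind, had 5 detected probe sets, 3 higher and 2 lower in sh-BCLAF1-L, from -0.03 to 0.16. Its brightest, 225011_at, read 2114 in sh-BCLAF1-L and 1890 in sh-Luci. PRKAR2B, the type II subunit known from adipose tissue and brain, had 1 probe set, below detection at 16.0 in sh-BCLAF1-L and 16.5 in sh-Luci.

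**Figure D3:**
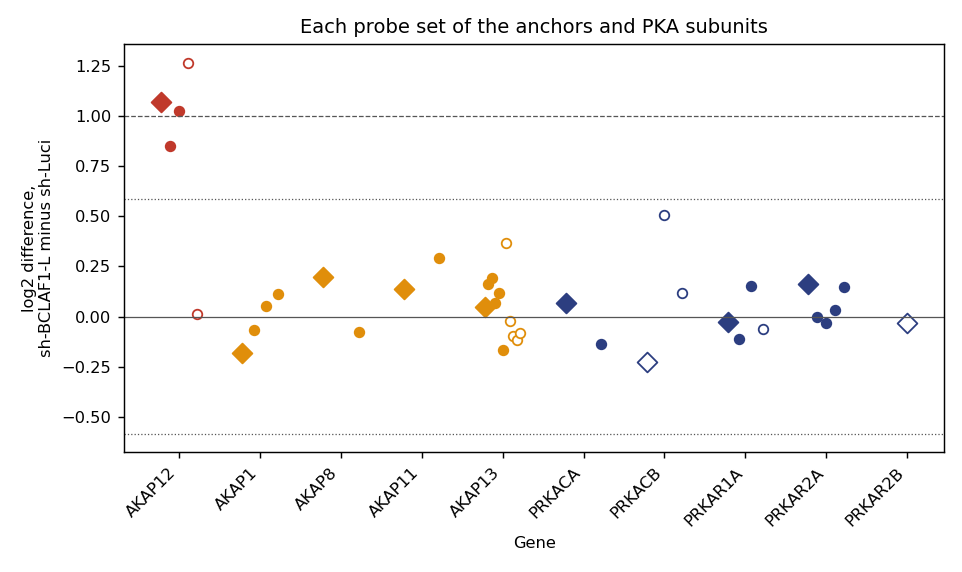
Log2 difference (sh-BCLAF1-L minus sh-Luci, y) of each probe set by gene (x), with a diamond for the brightest probe set of a gene, circles for its others and open symbols below detection; dotted and dashed lines mark 1.5-fold and 2-fold. AKAP12 is the only one of the 10 genes with symbols above 1.5-fold, and its dimmest probe set lies at 0.01.

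Compared directly, the AKAP12 difference on the brightest probe set exceeded the median of the 7 other detected member genes, 0.07, by 1.00 on the log2 scale. AKAP12 was chosen for its difference, so this excess describes that choice. Gene by gene the excess ran from 0.87 over AKAP8 to 1.25 over AKAP1. Both ends rest on the brightest probe set of genes whose probe sets split in direction. It was 1.00 over PRKACA, 0.91 over PRKAR2A and 1.10 over PRKAR1A.

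The wider cAMP pathway was read from 9 gene lists with 100 genes, 86 of them represented on the array by a single-symbol probe set and 70 detected. On the brightest probe set of each gene, none of the 70 reached 1.5-fold in either direction, against 0.634% of all detected genes. At that share few or none of 70 would do so, so nothing is read from that count. Of the 70 genes, 43 were higher and 27 lower, and the median was 0.05. Over all detected genes the median was 0.02 and 55.0% were higher. The genes named here are those with the largest difference in their list, and AKAP10, PDE3B, PDE4A, PDE4B, PDE4D and RGS2 were added after their values were seen. Further anchors (14 detected) had 12 members higher and a median of 0.13, from -0.25 to 0.28 for AKAP5, a neuronal membrane anchor that read 74.0 in sh-BCLAF1-L and 60.8 in sh-Luci. That median was 0.02 when each gene took the median of its probe sets, and 0.08 over genes that pass the 60th percentile. AKAP10, an anchor of mitochondria, was higher on all 4 of its detected probe sets, by 0.11 to 0.27. The second detected probe set of AKAP5 differed by -0.18. Of the other PKA subunits and inhibitors, 3 were detected, with PKIG, an inhibitor of the catalytic subunit, at 200.5 in sh-BCLAF1-L and 232 in sh-Luci.

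Upstream of PKA, 9 adenylyl cyclases were detected, 3 higher and 6 lower, with a median of -0.0054 and the largest difference at ADCY4 (0.27). G proteins and receptors had a median of 0.04 over 8 detected genes. GNAI2, an inhibitory G alpha subunit, read 211 in sh-BCLAF1-L and 262 in sh-Luci, a difference of -0.31. Phosphodiesterases, which break down cyclic AMP, had 7 of 10 detected members higher and a median of 0.14. PDE1C read 116.4 in sh-BCLAF1-L and 86.2 in sh-Luci, a difference of 0.43 on its 1 detected probe set of 6. PDE4A and PDE4B differed by 0.33 and 0.30, and the second detected probe set of PDE4B by 0.02. PDE4D differed by 0.10 on its brightest probe set and by 0.50 on its second. PDE3B was lower on all 3 of its detected probe sets, at -0.07 on the brightest and between -0.65 and -0.0082 on the others, and it was the 1 gene of the lists with another detected probe set past 1.5-fold.

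Downstream of PKA, 8 factors and coactivators of the cAMP response were detected with 4 higher, 4 lower and a median of -0.02. CREBBP, the acetyltransferase that phosphorylated CREB recruits, read 298 in sh-BCLAF1-L and 358 in sh-Luci, and its second detected probe set differed by -0.18. Genes induced by cyclic AMP were split, 5 higher and 5 lower, with a median of 0.04. SST, which encodes somatostatin, read 86.2 in sh-BCLAF1-L and 119.5 in sh-Luci, a difference of -0.47. RGS2, a G protein regulator, read 1365 in sh-BCLAF1-L and 1025 in sh-Luci, a difference of 0.41, and each rested on 1 probe set. RAPGEF3, the cAMP-activated exchange factor EPAC, differed by 0.06.

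Known partners of AKAP12 had a median of 0.09 over 8 detected genes, 5 higher and 3 lower. CCND1, cyclin D1, which AKAP12 is known to bind, read 543 in sh-BCLAF1-L and 738 in sh-Luci, a difference of -0.44. Its second detected probe set differed by -0.09.

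**Figure D4:**
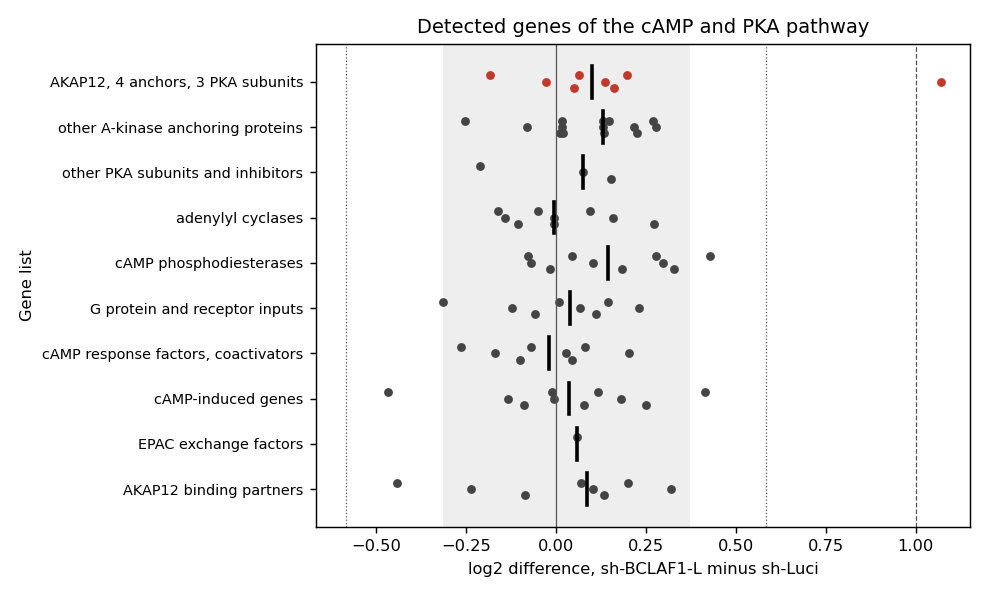
Log2 difference (sh-BCLAF1-L minus sh-Luci, x) of each detected gene on its brightest probe set, by list (rows), with a black bar at the median of the list; the grey band is the central 95% of all detected genes, -0.31 to 0.37, and dotted and dashed lines mark 1.5-fold and 2-fold. AKAP12 at 1.07 is the only point past the 1.5-fold line, and PDE1C, RGS2, SST, CCND1 and GNAI2 lie outside the band.

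With 2 arrays, likeness of pattern can only be likeness of the difference. The rule took genes outside the lists with several detected probe sets that all went the same way, of which there were 3017, and ranked them by distance from the AKAP12 value of 1.07. The nearest were EPB41L4B (1.07), PDP1 (0.92), NBPF20 (0.86), NRP1 (0.85) and C6orf141 (0.81). The rule itself set the closeness of the brightest probe set and the shared direction. Their other detected probe sets differed by 0.08 and 0.23 for EPB41L4B, 0.95 for PDP1, 0.65 for NBPF20, 1.18 for NRP1 and 0.31 for C6orf141. So PDP1, NBPF20 and NRP1 were past 1.5-fold on their other detected probe set as well, and EPB41L4B and C6orf141 were not. NBPF20 belongs to a family of near-identical copies, and its signal may be shared with them.

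BCLAF1, the gene the hairpin targets, was lower on all 6 of its probe sets and read 945 in sh-BCLAF1-L and 2505 in sh-Luci on the brightest. Whether these probe sets read the L form was not examined. Of the markers of the labelled cell type, EPCAM read 472 in sh-BCLAF1-L and 477 in sh-Luci, and KRT18 read 674 in sh-BCLAF1-L and 979 in sh-Luci. KRT8, VIL1, CDX2 and GPA33 were detected with differences of 0.02, 0.14, 0.20 and 0.30, LGALS4 was detected with -0.37, and CDH1, KRT19 and CDH17 lay below detection. VIL1 read 67.5 in sh-BCLAF1-L and 61.1 in sh-Luci, and CDX2 read 77.3 in sh-BCLAF1-L and 67.4 in sh-Luci. Both lay near the detection cut of 63.7. They were dimmer than the blood cell marker CD3E, at 111 in sh-BCLAF1-L and 135 in sh-Luci, so their expression is not established. Of other cell types, the summed intensity of 7 fibroblast markers was 798 in sh-BCLAF1-L and 733 in sh-Luci, of 4 endothelial markers 346 in sh-BCLAF1-L and 331 in sh-Luci, and of 4 blood cell markers 224 in sh-BCLAF1-L and 235 in sh-Luci. Detected among them were COL1A1, at 397 in sh-BCLAF1-L and 355 in sh-Luci, COL1A2, DCN, LUM, VWF, PECAM1 and CD3E, and their differences ran from -0.27 for CD3E to 0.19 for LUM. The others, which include COL3A1, PDGFRB, CDH5 and PTPRC, lay below detection. All 18 bacterial spike-in probe sets were higher on the sh-BCLAF1-L array, by 0.05 to 0.33 with a median of 0.20, and the ratio of 3′ to 5′ signal was 3.81 in sh-BCLAF1-L and 3.41 in sh-Luci for ACTB. Their part in the AKAP12 difference was not tested.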

How the data were processed

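Per the labels' protocols, Trizol was used for RNA extraction and 200 ng of total RNA went into biotin-labelled cRNA with a kit that primes at the 3′ end. The authors deposited an intensity on a linear scale for every probe set of each array. RMA, named in the submitters' processing notes, corrects background, equalises the arrays and summarises probes, and the sources used here give neither software nor final scaling. Dim values may keep background that compresses folds. The number of arrays limits the precision.

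Of 54675 probe sets, 41097 had 1 gene symbol, 1801 several and 11777 none; 41043 of the 41097 were matched by gene identifier to RefSeq (GRCh38.p14) and took its symbol. Differences are on the log2(intensity + 1) scale, sh-BCLAF1-L minus sh-Luci, so folds of dim probe sets are understated. A gene took its brightest probe set, and detection was the 40th percentile of the mean. With 1 array per group no test was run, and counts past 1.5-fold and 2-fold are given beside those of all features. The members, lists and thresholds were chosen with earlier results of these data known. Named by rule were all member probe sets, BCLAF1, list genes past 1.5-fold or else the one with the largest difference, and the 5 genes nearest to AKAP12 in difference. Alternatives were other pseudocounts (0 and 32), scalings (median, loess with span 0.3), gene summaries, probe set types and filters. The procedure was tested on simulated data with noise of 1 constant SD, the within-gene value of 0.16. That simulation left out the spread between cultures and arrays and the change of spread with brightness. Python 3.11.15, pandas 2.3.3 and statsmodels 0.14.6 were used.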

Additional observations from a re-analysis of the deposited data

How the results depend on the processing

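No paired analysis was possible because 1 array stood for each hairpin, and leaving out a replicate was likewise not possible. A value was taken as moved when it changed by more than the within-gene SD of 0.16. The AKAP12 difference lay between 0.85 and 1.07 over the main setting and 9 alternatives, and AKAP12 was the 1 member gene past 1.5-fold in each. Without probe sets named _s_at or _x_at, AKAP12 rests on 227530_at, and the difference was 0.85, its excess over the median of the other members 0.80, the count of members past 2-fold 0 and the count of detected member probe sets past 1.5-fold 1. The median of the other members stayed between 0.03 and 0.07. AKAP1 differed by -0.0052 with the median over probe sets and AKAP8 by -0.08 when _s_at and _x_at names were dropped. With no filter, 1 cAMP-induced gene passed 1.5-fold, PCK1, at 22.9 in sh-BCLAF1-L and 12.0 in sh-Luci, both below detection. The counts of the other lists stayed at 0 under the alternatives run, and the EPAC list had no detected gene with a filter at the 60th percentile.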

Other observations

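The genes next to AKAP12 on chromosome 6 were looked at after the values were seen, taking the 6 protein-coding genes on each side in RefSeq order (GRCh38.p14). Of these 12, 10 had a probe set with 1 symbol and 5 were detected. The detected neighbours differed by -0.14 to 0.12 on the log2 scale. None of these 5 reached 1.5-fold, against 0.634% of all detected genes in either direction, so nothing is read from that count. ZBTB2, the next gene after AKAP12, read 676 in sh-BCLAF1-L and 666 in sh-Luci. MTHFD1L, the gene before it, read 85.6 in sh-BCLAF1-L and 79.0 in sh-Luci.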
